A study of Mus musculus with 12 samples.

Results

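The genes described here are 10 genes of insulin signalling and glucose transport in iWAT, the subcutaneous inguinal white fat of the mouse: Insr, Irs1, Irs2, Grb14, Pik3r1, Akt1, Akt2, Tbc1d4, Slc2a4 and Slc2a1. They were chosen by symbol from the 33200 gene identifiers of the iWAT count table. Each symbol matched 1 identifier, and all 10 were among the 16656 genes that had enough counts to be tested. RNA was sequenced from 3 mice with a global CRISPR/Cas knockout of Nrep (Nrep-/-, here KO) and from 3 wild-type mice (WT), all C57BL/6, on a standard maintenance diet and 16 weeks old, described as biological replicates. The deleted part of Nrep and the sex of the animals are not given in the sources used here, and the series also holds 6 liver samples, not used here. The question is how the transcripts of the pathway differ between KO and WT fat.

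Insulin binds its receptor, a tyrosine kinase encoded by Insr, which phosphorylates the docking proteins IRS1 and IRS2. These recruit phosphoinositide 3-kinase through its regulatory subunit, made from Pik3r1, and the lipid it produces brings the Akt kinases to the plasma membrane, where they are activated. In fat cells AKT2 phosphorylates TBC1D4 (AS160), a Rab GTPase-activating protein that otherwise holds vesicles carrying the glucose transporter GLUT4 (Slc2a4) inside the cell. GLUT1 (Slc2a1) provides basal glucose uptake, and GRB14 is an adaptor that binds the activated receptor and inhibits it. Most of this regulation acts on proteins, by phosphorylation and by movement between membranes, and transcript levels do not measure it.

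Slc2a4 and Slc2a1 differ in a motif near the start of the coding sequence. The first 60 coding bases of each are shown because the Slc2a4 stretch carries the FQQI motif, an internalisation signal of GLUT4. They were read from GENCODE M21 transcripts (build GRCm38). Capitals mark the codons of the motif, at coding bases 13 to 24, counted from 1 at the start codon. Slc2a4 lies on chromosome 11 and Slc2a1 on chromosome 4.
Slc2a4: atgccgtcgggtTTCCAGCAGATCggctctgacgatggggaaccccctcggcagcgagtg
Slc2a1: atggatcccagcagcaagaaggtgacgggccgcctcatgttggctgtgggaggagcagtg
The motif was found nowhere in the translated Slc2a1 coding sequence. The translations of Slc2a4 and Slc2a1 had 509 and 492 residues, of which 328 of 491 aligned residues were identical (66.8%).

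The libraries held between 17970451 and 20369345 estimated counts, and the 10 genes had 168 to 7193 counts per library, the fewest in Grb14. Nrep, the targeted gene, had 2, 2 and 5 counts in the KO libraries, against 1404, 1640 and 1300 in the WT libraries. KO replicate 2 stood apart. On the first principal component of all tested genes, with 64.5% of the variance, it scored -0.72, against 42.98 and 61.57 in KO replicates 1 and 3 and -46.52 to -20.28 in WT. The adipocyte marker level, the mean log2 difference of 17 fat-cell genes from the WT mean, was 0.79, 0.19 and 1.05 in KO replicates 1, 2 and 3, against -0.01, -0.18 and 0.19 in the WT replicates. All 17 of these markers had counts in every library, matching the tissue label. Skeletal muscle transcripts were also present: 16 muscle markers took 0.439%, 0.0834% and 0.404% of the counts in KO replicates 1, 2 and 3, against 0.00302% to 0.00388% in WT, where Ckm, Pvalb and Tcap had 0 counts in replicate 2 and Myh4 had 0 in replicate 3. In whole tissue, fewer cells of a type and less RNA per cell cannot be told apart.

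One of the 10 genes, Slc2a4, rose in the KO tissue past the test, and the other 9 did not pass it. The test was edgeR's quasi-likelihood test with p-values adjusted over all 16656 tested genes by the Benjamini-Hochberg method, at 0.05. Levels are given in CPM, counts per 1000000 after TMM scaling, which corrects for differences in depth and composition between libraries. Over all tested genes 171 passed (1.03%), 144 higher in KO (0.865%) and 27 lower (0.162%). The groups did not overlap in 5 of the 10 genes, 2 of them higher in KO (Slc2a4 and Akt2) and 3 lower (Irs2, Akt1 and Tbc1d4). Over all tested genes the groups did not overlap in 28.3%, KO being higher in 15.2% and lower in 13.1%. An unadjusted p under 0.05 was reached by 3 of the 10 genes, 2 higher in KO and 1 lower, and by 22.6% of all tested genes, 12.8% higher and 9.79% lower. The median log2 fold change of the 10 genes, KO over WT, was 0.13, and that of all tested genes was -0.06. Without KO replicate 2, the test called 4 of the 10 genes, all higher in KO: Insr, Pik3r1, Akt2 and Slc2a4. That fit also called 4221 of all 16656 tested genes, 2410 higher and 1811 lower, so the larger count is not particular to the 10 genes.

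**Figure D1:**
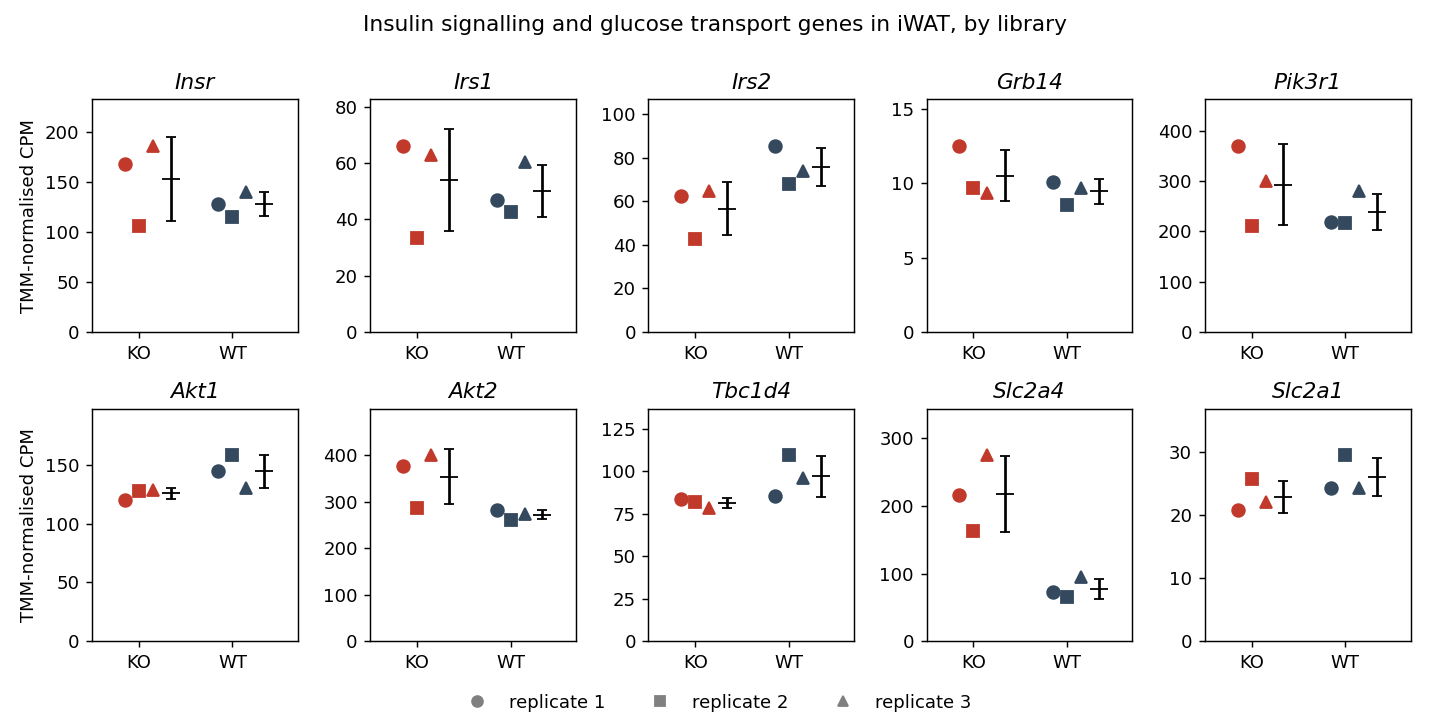
TMM-normalised CPM of the 10 genes in each iWAT library, KO left of WT, with the replicate number as the symbol and the mean ± SD (n = 3) beside each group; every vertical axis starts at 0. The Slc2a4 values of 163 to 275 CPM in KO lie above the 66.1 to 94.6 CPM in WT, while KO replicate 2 (square) is the lowest of the 6 libraries for Insr, Irs1, Irs2 and Pik3r1.

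Slc2a4, the insulin-responsive transporter, rose in KO. It had 216.0, 163 and 275 CPM in KO replicates 1, 2 and 3, against 72.7, 66.1 and 94.6 CPM in WT replicates 1, 2 and 3. Every KO library was above every WT library, and the lowest KO value belonged to KO replicate 2. The mean was 218 ± 56.2 CPM in KO and 77.8 ± 15.0 CPM in WT (SD, n = 3 each). The log2 fold change was 1.49 (SE 0.225, 95% interval 0.96 to 2.01, edgeR adjusted p = 0.0435). A log2 fold change at least this large was found in 1.45% of the tested genes. The call was lost with limma-voom (adjusted p = 0.0638), which called 16 of all 16656 tested genes. It was also lost in edgeR without KO replicate 1 (adjusted p = 0.206), KO replicate 3 (0.0868), WT replicate 1 (0.210) or WT replicate 2 (0.212). Those edgeR fits called 1, 3, 1 and 1 of all tested genes, so the loss is not particular to Slc2a4. Over these and the other alternatives the log2 fold change stayed between 1.28 and 1.72.

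Slc2a4 was also higher in KO beside the fat-cell markers of the same library. Its log2 level minus the mean log2 level of the 17 adipocyte markers, on the log2(CPM + 0.5) scale, was -2.44, -2.25 and -2.35 in KO replicates 1, 2 and 3, against -3.20, -3.17 and -3.03 in WT. The groups did not overlap on this scale, as in 1.85% of all tested genes with KO higher. The mean was -2.35 ± 0.10 in KO and -3.13 ± 0.09 in WT (SD, n = 3 each), a difference of 0.79. The exact permutation test gave p = 0.1 (two-sided), the smallest that 3 libraries against 3 allow. Relative to Adipoq and Plin1 alone the difference was 0.66. KO replicate 2 and WT replicate 3 had the same adipocyte marker level of 0.19, with 163 CPM of Slc2a4 in KO replicate 2 and 94.6 CPM in WT replicate 3.

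Skeletal muscle also makes GLUT4, and muscle transcripts rose in all 3 KO libraries: of 16 tested muscle markers 13 rose and 0 fell in edgeR, while all 16 had a positive log2 fold change. The muscle marker level, the mean log2 difference from the WT mean, was 6.86, 4.26 and 7.05 in KO replicates 1, 2 and 3, against -0.08 to 0.05 in WT. KO replicate 2, with the lowest muscle marker level of the KO libraries, had the highest level of Slc2a4 relative to adipocyte markers. Leaving the muscle marker genes out of the table before normalization gave Slc2a4 a log2 fold change of 1.49 (edgeR adjusted p = 0.0491). That fit kept every Slc2a4 count and could change only the scaling, the estimates of spread and the adjustment. It cannot show how much of the Slc2a4 counts came from muscle. The part of muscle RNA in the Slc2a4 counts was not tested.

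**Figure D2:**
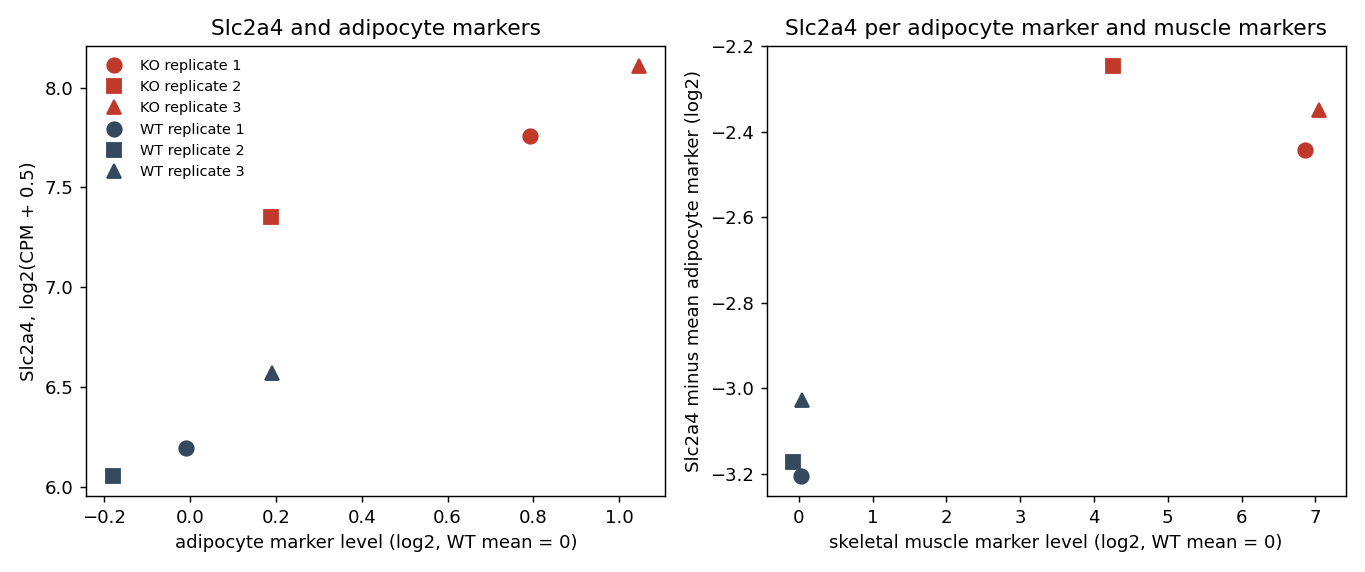
Left, Slc2a4 as log2(CPM + 0.5) against the adipocyte marker level of the same library; right, Slc2a4 minus the mean adipocyte marker against the skeletal muscle marker level; both marker levels are log2 values with the WT mean at 0, and each point is 1 library. At the shared adipocyte level of 0.19, KO replicate 2 lies above WT replicate 3, and on the right the KO libraries at -2.44 to -2.25 lie above the WT libraries at -3.20 to -3.03.

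Slc2a1, the basal transporter, did not pass the test. It had 20.8, 25.7 and 22.1 CPM in KO replicates 1, 2 and 3, against 24.2, 29.4 and 24.3 CPM in WT. The groups overlapped, with a log2 fold change of -0.18 (95% interval -0.51 to 0.14, edgeR adjusted p = 0.452). The log2 level of Slc2a4 minus that of Slc2a1 was 3.34, 2.64 and 3.61 in KO, against 1.57, 1.15 and 1.94 in WT, without overlap. This balance depends on the lengths of both transcripts, so its change alone is read: it was 1.64 higher in KO (two-sided exact permutation p = 0.1, again the lowest value possible).

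At the receptor, neither Insr nor its inhibitor Grb14 differed beyond the spread between animals. Insr had 168, 106 and 186 CPM in KO replicates 1, 2 and 3, against 128, 115 and 140 CPM in WT. The KO values enclosed the WT values, with KO replicates 1 and 3 above all WT libraries and KO replicate 2 below them, and the log2 fold change was 0.26 (95% interval -0.23 to 0.75, edgeR adjusted p = 0.474). Without KO replicate 2 Insr rose, with a log2 fold change of 0.53 (edgeR adjusted p = 0.0217). Grb14 had 12.5, 9.70 and 9.34 CPM in KO, against 10.1, 8.54 and 9.70 CPM in WT. Its groups overlapped too, with a log2 fold change of 0.15 (95% interval -0.25 to 0.56, edgeR adjusted p = 0.613).

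The docking proteins showed no called difference either, although Irs2 did not overlap between the groups. Irs2 had 62.6, 42.8 and 64.6 CPM in KO replicates 1, 2 and 3, against 85.4, 68.1 and 73.9 CPM in WT. All KO libraries were below all WT libraries, but the log2 fold change of -0.42 (SE 0.179, 95% interval -0.83 to -0.0073) had an unadjusted p of 0.0469 and an edgeR adjusted p of 0.214. Without KO replicate 2 it was -0.20 (edgeR adjusted p = 0.287). Irs1 had 66.0, 33.2 and 62.7 CPM in KO, against 46.9, 42.6 and 60.5 CPM in WT. Its values overlapped widely and its direction was not settled: the log2 fold change was 0.11 (edgeR adjusted p = 0.818), and it was -0.047 with scaling by library totals alone. It was also negative without KO replicate 1 (-0.060) or KO replicate 3 (-0.012), and it was 0.42 without KO replicate 2. The log2 level of Irs2 minus that of Irs1 was -0.08, 0.36 and 0.04 in KO, against 0.86, 0.67 and 0.29 in WT, a difference of -0.50 (exact permutation p = 0.2, two-sided). The groups overlapped on this balance, since KO replicate 2 had 0.36 and WT replicate 3 had 0.29.

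Pik3r1 and Akt2 had positive log2 fold changes and Akt1 a negative one, with none past the test. Pik3r1 had 370.0, 210.2 and 300 CPM in KO replicates 1, 2 and 3, against 218, 217 and 280 CPM in WT. KO replicate 2 lay below all WT libraries and the other KO libraries above them, with a log2 fold change of 0.30 (edgeR adjusted p = 0.442). Akt2, the Akt isoform most needed for insulin-stimulated glucose uptake, had 376, 286 and 400 CPM in KO, against 282, 261 and 273 CPM in WT. It was higher in 3 of 3 KO libraries, by a log2 fold change of 0.38 (95% interval 0.0023 to 0.76, unadjusted p = 0.0489, edgeR adjusted p = 0.219). Without KO replicate 2 both rose, Pik3r1 by a log2 fold change of 0.55 (edgeR adjusted p = 0.0415) and Akt2 by one of 0.57 (edgeR adjusted p = 0.0130). Akt1, the more widely expressed isoform, had 120, 128 and 128 CPM in KO, against 145, 158 and 130.1 CPM in WT. All KO values were below all WT values by a narrow margin, with a log2 fold change of -0.20 (95% interval -0.49 to 0.09, edgeR adjusted p = 0.363). The translated Akt1 and Akt2 sequences shared 82.1% of 479 aligned residues.

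Tbc1d4, the Akt substrate that restrains GLUT4 vesicles, had 83.6, 82.2 and 78.3 CPM in KO replicates 1, 2 and 3, against 85.2, 109 and 96.3 CPM in WT. The KO values lay close together and just below the lowest WT value. The log2 fold change was -0.25 (95% interval -0.55 to 0.04), and it did not pass the test (edgeR adjusted p = 0.277). KO replicate 2 was not set apart from the other KO libraries for Tbc1d4, unlike for Insr, Irs1, Irs2 and Pik3r1.

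**Figure D3:**
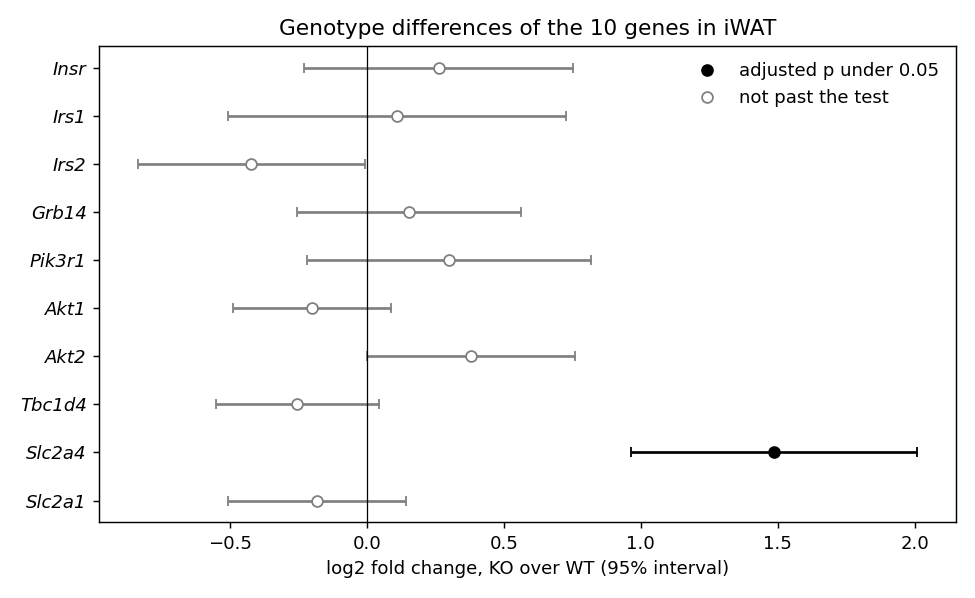
Log2 fold change, KO over WT, of the 10 genes with its 95% interval from the edgeR fit; the filled point passed an adjusted p of 0.05. The interval of Slc2a4 runs from 0.96 to 2.01, and the upper ends of the other 9 lie at or below 0.82.

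The intervals bound what these libraries leave possible. For the 9 genes that did not pass, the lower ends lay between -0.83 (Irs2) and 0.0023 (Akt2), and the upper ends between -0.0073 (Irs2) and 0.82 (Pik3r1), so a log2 fold change as large as that of Slc2a4 lay outside the interval of each of them. A missed threshold does not show that these genes were alike in both genotypes.

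Set against the adipocyte markers of the same library, nearly all genes of the table were lower in KO on average, Slc2a4 not among them. This description was chosen after the values had been seen, and it carries no test. Relative to the 17 markers, 93.7% of all tested genes had a lower KO mean, and so did 9 of the 10 genes, a share like that of all genes. The groups did not overlap with KO lower in 40.5% of all tested genes and in 6 of the 10, so nothing about the pathway is read from these counts. Slc2a4 was the 1 gene of the 10 with a higher KO mean, and 0.913% of all tested genes had a difference at least as high as its 0.79. The median difference of all tested genes on this scale was -0.73. Insr was -2.81, -2.86 and -2.91 in KO replicates 1, 2 and 3, against -2.39, -2.37 and -2.47 in WT, on the log2 scale. KO replicate 2, the lowest library for Insr in CPM, lay between the other KO libraries on this scale. Irs2, with the largest difference of the 9, had -4.22, -4.16 and -4.43 in KO and -2.97, -3.13 and -3.38 in WT, a mean difference of -1.11. The mean differences of the other 8 ran from -0.92 (Tbc1d4) to -0.31 (Akt2), with overlapping groups for Akt2, Slc2a1 and Grb14. The adipocyte markers themselves had a median log2 fold change of 0.77 with 0 of 17 past the test in edgeR. Of the 17, 12 had an unadjusted p under 0.05, against 22.6% of all tested genes. DESeq2 called 13 of the 17 and 1824 of all 16656 tested genes, and limma-voom called 0 and 16. Values on this scale combine a difference in the 10 genes with one in the markers.

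**Figure D4:**
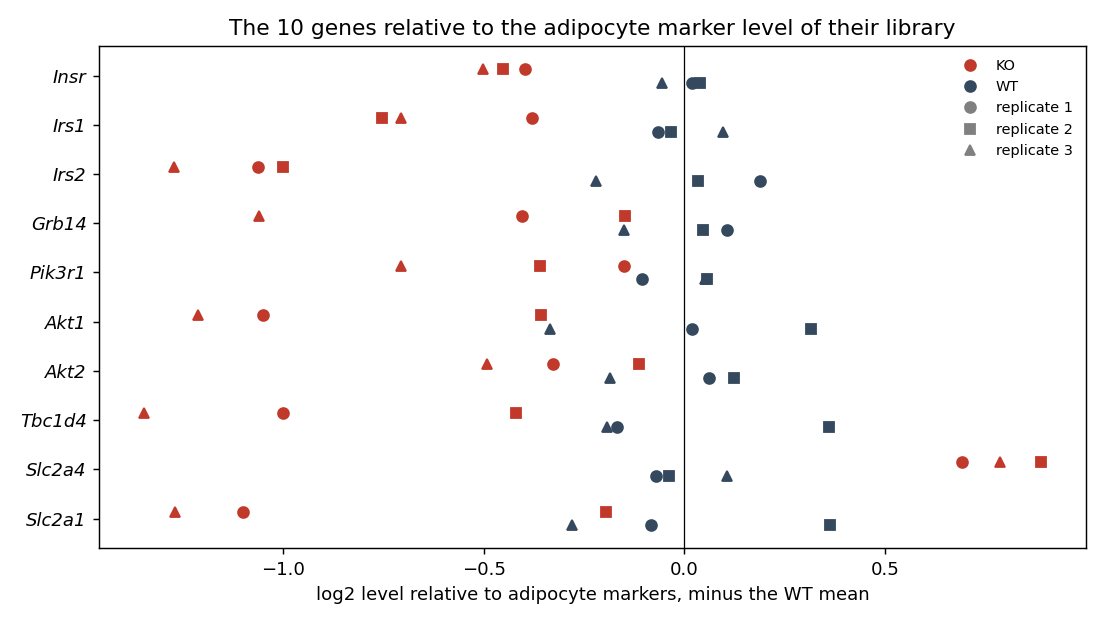
Level of each of the 10 genes relative to the mean of 17 adipocyte markers in the same library, as log2 minus the WT mean of that gene, with KO points (red) drawn above WT points (dark) and the replicate number as the symbol. Slc2a4 is the gene whose KO libraries lie to the right of WT, and its mean difference is 0.79, against -1.11 for Irs2, -0.45 for Insr and a median of -0.73 over all tested genes.

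Beyond the 10 genes, 100 further genes of the pathway were followed in 7 lists, and 99 had enough counts to be tested. One of them, Slc2a5, rose past the test and none fell, with 53 positive and 46 negative log2 fold changes and a median of 0.04. All tested genes had 7364 positive and 9292 negative log2 fold changes, with a median of -0.06. Slc2a2, the glucose transporter of liver and pancreatic beta cells, was the untested one, with 2 counts over the 6 libraries. The counts for all lists moved with KO replicate 2: without it the test called 40 of the 99, 25 higher and 15 lower. The same fit called 4221 of all 16656 tested genes, 2410 higher and 1811 lower.

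Slc2a5 encodes GLUT5, a fructose transporter. It had 20.9, 15.7 and 21.1 CPM in KO replicates 1, 2 and 3, against 3.03, 3.50 and 1.34 CPM in WT, from 365, 319 and 379 counts in KO and 57, 75 and 28 in WT. The groups lay far apart, and KO replicate 2 was close to the other KO libraries. The log2 fold change was 2.87 (SE 0.334, edgeR adjusted p = 0.0280), and it stayed between 2.55 and 3.14 over the alternatives. The call was lost in edgeR without KO replicate 1 (adjusted p = 0.138), KO replicate 3 (0.0857), WT replicate 1 (0.171) or WT replicate 2 (0.125). Those fits called 1, 3, 1 and 1 of all 16656 tested genes, so this loss is not particular to Slc2a5 either. The translated Slc2a5 sequence shared 42.2% of 490 aligned residues with that of Slc2a4.

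Of the other 11 tested transporters and hexokinases, none passed in edgeR. Over the 12 tested genes of this list 7 had an unadjusted p under 0.05, 4 higher and 3 lower in KO. Of all tested genes 22.6% did, 12.8% higher and 9.79% lower. The groups did not overlap in 4 of the 12 with KO higher and in 2 with KO lower. Over all tested genes these shares were 15.2% and 13.1%. The 3 named here were chosen after their values were seen. Hk2 is the insulin-inducible hexokinase of fat and muscle, which traps glucose in the cell by phosphorylating it. It had 144, 94.3 and 159 CPM in KO, against 74.2, 65.4 and 67.7 CPM in WT, without overlap (log2 fold change 0.94, edgeR adjusted p = 0.0625). The part of muscle RNA in the Hk2 counts was not tested. Hk3, a hexokinase of blood and myeloid cells, went the other way, with 7.28, 7.19 and 6.78 CPM in KO, against 18.6, 21.5 and 10.4 CPM in WT, also without overlap (log2 fold change -1.24, edgeR adjusted p = 0.0625). Slc2a6, a transporter of the same family, had 1.89, 4.29 and 1.11 CPM in KO, against 7.18, 7.37 and 4.06 CPM in WT, with overlap (log2 fold change -1.34, edgeR adjusted p = 0.160). Without KO replicate 2 all 3 passed in edgeR, with log2 fold changes of 1.19 for Hk2, -1.20 for Hk3 and -1.99 for Slc2a6. That fit called 4221 of all 16656 tested genes. Hk2 and Hk3 passed in DESeq2, which called 4 of the 12 tested genes of this list, against 1 in limma-voom. Of all 16656 tested genes DESeq2 called 1824 and limma-voom 16.

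Among the Akt substrates and effectors, 11 of 14 tested genes had positive log2 fold changes, with a median of 0.26, but 0 passed in edgeR. Of the 14, 7 had an unadjusted p under 0.05 (6 higher, 1 lower), DESeq2 called 2 and limma-voom 0. Of all 16656 tested genes, 7364 had a positive log2 fold change, and the median was -0.06. An unadjusted p under 0.05 was reached by 22.6% of them (12.8% higher, 9.79% lower), DESeq2 called 1824 and limma-voom 16. Gys1, the glycogen synthase that insulin activates through GSK3, had 175, 113 and 184 CPM in KO, against 87.1, 75.9 and 85.4 CPM in WT (log2 fold change 0.93, edgeR adjusted p = 0.0625). The part of muscle RNA in the Gys1 counts was not tested. Pde3b, the phosphodiesterase through which insulin restrains lipolysis, had 480.0, 267 and 492 CPM in KO, against 235, 163 and 315 CPM in WT. The Pde3b groups overlapped, since KO replicate 2 lay below WT replicate 3 (log2 fold change 0.80, edgeR adjusted p = 0.182).

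In the list of GLUT4 vesicle traffic 0 of 20 tested genes passed in edgeR, and the median log2 fold change was 0.05. Of the 20, 2 had an unadjusted p under 0.05, against 22.6% of all tested genes. DESeq2 called 2 of the 20 and 1824 of all 16656 tested genes, and limma-voom called 0 and 16. Ralgapa2, a subunit of the RalA GTPase-activating complex that Akt phosphorylates, had 168, 108 and 157 CPM in KO, against 84.2, 75.4 and 89.1 CPM in WT (log2 fold change 0.80, edgeR adjusted p = 0.0668). Sort1, the sorting receptor sortilin that helps form GLUT4 vesicles, had 470.5, 306 and 508 CPM in KO, against 257, 236 and 264 CPM in WT (log2 fold change 0.76, edgeR adjusted p = 0.0895). In both, all KO libraries were above all WT libraries, KO replicate 2 being the lowest of the KO libraries. Over the 20 tested genes the groups did not overlap in 3 with KO higher and in 2 with KO lower. Of all tested genes, 15.2% did not overlap with KO higher and 13.1% with KO lower.

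Receptor-proximal adaptors, the kinases around phosphoinositide 3-kinase and Akt, and the brakes on insulin signalling had median log2 fold changes of -0.06, -0.06 and -0.07, with 0 of 12, 0 of 12 and 0 of 16 tested genes past the test in edgeR. At an unadjusted p under 0.05 these lists held 3, 2 and 4 genes, DESeq2 called 1, 0 and 1, and limma-voom 0 in each. Of all 16656 tested genes 22.6% had an unadjusted p under 0.05, DESeq2 called 1824 and limma-voom 16. Among adaptors, Sh2b2 (APS), which binds the insulin receptor, had 56.8, 46.3 and 72.9 CPM in KO, against 38.9, 28.5 and 32.2 CPM in WT (log2 fold change 0.82, edgeR adjusted p = 0.0703). All KO libraries were above all WT libraries for Sh2b2, KO replicate 2 being the lowest of the KO libraries. Over the 12 adaptors the groups did not overlap in 2 with KO higher and in 1 with KO lower. Of all tested genes, 15.2% did not overlap with KO higher and 13.1% with KO lower.

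Among the kinases and brakes, genes lay on both sides without passing. Mtor and Ide, named after their values were seen, were higher in every KO library than in any WT library. Of the 12 genes in the kinase list, 1 did not overlap with KO higher and 1 with KO lower. Of the 16 brakes, 1 did so with KO higher and 0 with KO lower. Over all tested genes these shares were 15.2% and 13.1%. Mtor, the kinase of both mTOR complexes, had 79.1, 71.2 and 87.5 CPM in KO, against 61.5, 63.7 and 59.5 CPM in WT (log2 fold change 0.36, edgeR adjusted p = 0.129). Ide, the insulin-degrading enzyme, had 121, 96.9 and 75.0 CPM in KO, against 67.4, 72.2 and 62.5 CPM in WT (log2 fold change 0.53, edgeR adjusted p = 0.138). With library totals alone Mtor was at 0.22, and without KO replicate 1 Ide was at 0.35. Mtor passed without KO replicate 2 (log2 fold change 0.49, edgeR adjusted p = 0.0174). The genes that follow had negative log2 fold changes. Pik3cd, the leukocyte-enriched catalytic subunit, had 75.4, 137 and 48.2 CPM in KO, against 146, 148 and 124 CPM in WT, with KO replicate 2 inside the WT range (log2 fold change -0.68, edgeR adjusted p = 0.277). Socs3, which blocks cytokine and insulin receptor signalling, had 12.5, 18.8 and 11.3 CPM in KO, against 32.7, 43.9 and 16.7 CPM in WT, overlapping between KO replicate 2 and WT replicate 3 (log2 fold change -1.13, edgeR adjusted p = 0.123). Enpp1, an ectoenzyme that binds and inhibits the receptor, had a log2 fold change of -0.78 (edgeR adjusted p = 0.181). Leukocyte markers moved with these genes in part. The level of 10 macrophage markers was -1.03, -1.08 and -0.85 in KO replicates 1, 2 and 3, against 0.06, 0.41 and -0.47 in WT. The level of 8 B and T lymphocyte markers was -0.82, 0.27 and -1.66 in KO, against -0.02 to 0.04 in WT, so that KO replicate 2 had both the highest lymphocyte level and the highest Pik3cd of the KO libraries. The part of leukocyte RNA in these values was not tested.

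FoxO transcription factors are kept out of the nucleus by Akt, and 14 genes known as their targets were followed. None passed in edgeR, and the median log2 fold change was 0.06 with 8 positive and 6 negative values. Of the 14, 5 had an unadjusted p under 0.05, against 22.6% of all tested genes. DESeq2 called 3 of the 14 and 1824 of all 16656 tested genes, and limma-voom called 0 and 16. Klf15, a transcription factor that activates the Slc2a4 gene in cultured cells, had 89.9, 61.6 and 106 CPM in KO, against 40.9, 37.1 and 49.4 CPM in WT (log2 fold change 1.02, edgeR adjusted p = 0.0625). Pnpla2, the adipose triglyceride lipase and also one of the adipocyte markers, had 2221, 1511 and 2907 CPM in KO, against 1425, 1174 and 1485 CPM in WT (log2 fold change 0.70, edgeR adjusted p = 0.172). Trim63, a ubiquitin ligase of muscle named after its values were seen, had 251, 46 and 219 counts in KO and 0 in each WT library. KO replicate 2 was the lowest KO library for Trim63, as it was for the muscle marker level.

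**Figure D5:**
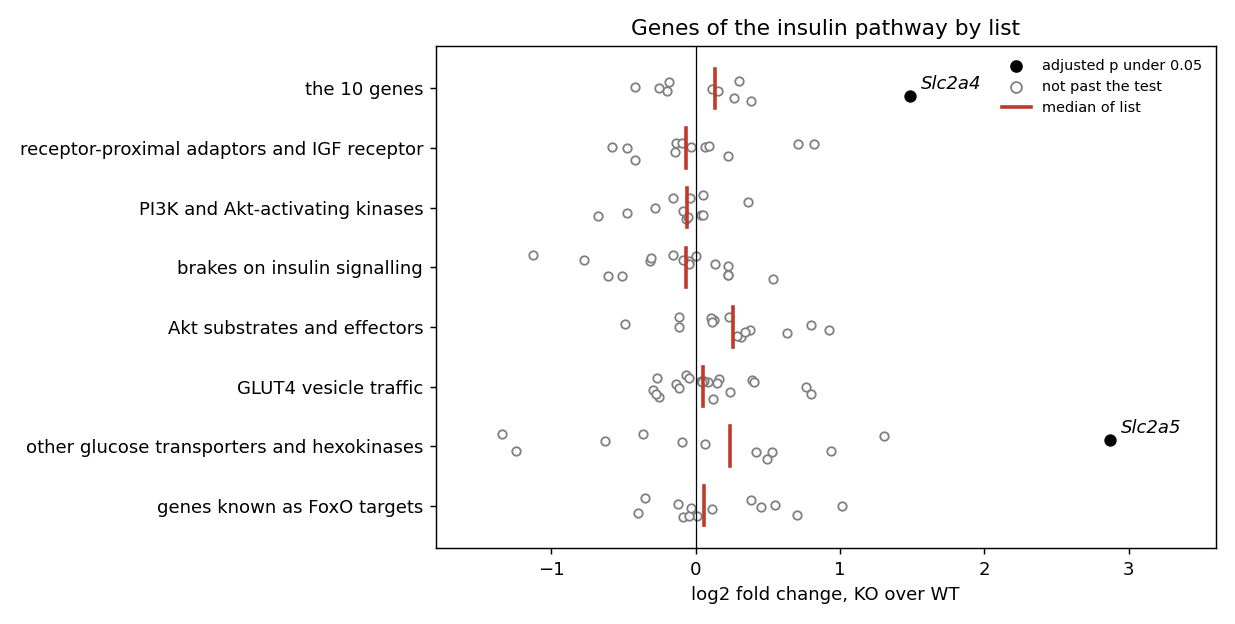
Log2 fold change, KO over WT, of each tested gene of the insulin pathway, by list, with the median of each list as a red bar and genes past an adjusted p of 0.05 in edgeR as filled points; Trim63, with 0 counts in WT, is not drawn but enters the median of its list. Slc2a4 at 1.49 and Slc2a5 at 2.87 are the filled points, and the medians of the lists lie between -0.07 and 0.26.

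The genes with the profile most like that of Slc2a4 over the 6 libraries were Mcf2l, Ucp3 and Nr1d1, out of 11656 named genes with a mean of at least 5 CPM. Likeness was the root mean square distance between log2 profiles, each centred on its own mean, which was 0.108, 0.118 and 0.127. Mcf2l, a guanine nucleotide exchange factor for small GTPases, had 81.0, 72.5 and 124 CPM in KO, against 29.8, 30.2 and 43.8 CPM in WT. Ucp3, a mitochondrial carrier protein of muscle and brown fat, had 63.9, 39.2 and 74.5 CPM in KO, against 20.9, 15.9 and 27.3 CPM in WT. The part of muscle RNA in the Ucp3 counts was not tested. Nr1d1, a repressor of the circadian clock, had 169, 110.0 and 167 CPM in KO, against 55.7, 49.1 and 65.1 CPM in WT. In all 3, as in Slc2a4, KO replicate 2 was the lowest KO library and WT replicate 3 the highest WT library. With 6 libraries split by genotype, any gene with a similar fold change scores well on this measure.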

How the data were processed

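Poly(A) RNA of iWAT was sequenced from stranded Illumina libraries, per the labels' protocols. The deposited values are estimated counts per gene and library, neither scaled nor pooled by the authors; 9.53% to 11.1% of values per library were not whole. The submitters' processing notes name fastp, featureCounts, GRCm38 and GRCm39 for the whole series, so the quantifier and build of this table are not given in the sources used here and no coordinates are printed. How reads shared between paralogs or overlapping genes were assigned is not given either.

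Counts were rounded to whole numbers. Symbols from GENCODE M21 matched 26372 of 33200 identifiers. The main test was edgeR 4.0.16 (R 4.3.3): quasi-likelihood F-test, robust, TMM normalization, filterByExpr, no covariate, two-sided, Benjamini-Hochberg adjustment. CPM values use TMM-scaled library sizes. Standard errors are the log2 fold change divided by the square root of F, and 95% intervals use the total degrees of freedom of the fit. A count of 3 corresponded to 0.147 to 0.167 CPM. Alternatives were DESeq2 1.42.0, limma-voom (limma 3.58.1), other scalings, filters, estimation and thresholds, a replicate block, removal of muscle markers, and leave-one-out fits with the tested genes held fixed. Counts were simulated from these libraries for KO over WT, with 200 of 16656 genes changed and 16359 kept by the filter. In them edgeR recovered 71% of 2-fold and 98% of 4-fold changes, with 11 false calls among 180. These shares describe the simulated counts only. Whether they hold for the measured libraries, where KO replicate 2 stood apart, was not tested.

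The 10 genes and all lists were chosen with earlier results of these data known. Named genes were the 10 genes, Nrep and, from each other list, up to 4 genes past the test or, where none passed, the 2 with the largest absolute log2 fold change at a mean of at least 5 CPM, plus the 3 genes most like the member with the smallest adjusted p. Some genes that this rule selects are counted in their lists but not reported here by name. No source says whether animals shared a litter or a day. The edgeR p-values set each difference against the spread between these libraries, estimated for each gene partly from the other genes. The exact permutation p-values compare arrangements of the library labels.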

Additional observations from a re-analysis of the deposited data

How the results depend on the processing

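Over 16 alternatives, 9 of the 10 genes kept the sign of their log2 fold change. The exception, Irs1, was at 0.11 in the fit reported and at -0.047 with library totals alone, -0.060 without KO replicate 1 and -0.012 without KO replicate 3, with a range of -0.060 to 0.42 over the fits that leave out 1 library. The count of called genes among the 10 was 1 in the fit reported, 0 with limma-voom and 0 to 4 when 1 library was left out. It was 0 without KO replicate 1, KO replicate 3, WT replicate 1 or WT replicate 2. Those fits called 1, 3, 1 and 1 of all 16656 tested genes. For the 99 other pathway genes the count of 1 became 2 with DESeq2 size factors, with library totals or with non-robust estimation, 13 with DESeq2, 9 without a filter, 11 at an adjusted p of 0.10, and 0 to 40 when 1 library was left out. For all genes the count of 171 became 1824 with DESeq2, 16 with limma-voom, 1370 without a filter, 1378 at an adjusted p of 0.10, 106 without the muscle markers, and 1 to 4221 when 1 library was left out; each of these has 5 libraries, and the cause of the large effect of KO replicate 2 was not tested. With library totals alone the median over all genes shifted by -0.13 (log2), and there were 129 higher and 49 lower calls, against 144 and 27. Same-numbered KO and WT libraries had correlations of deviations from their group means of -0.01, 0.22 and 0.11. Differently numbered ones had -0.20 to 0.18. With 3 libraries per group these values cannot settle whether the numbers mark pairs, and the fit reported used no pairing. With a replicate block, 1225 genes, 13 of the 99 pathway genes and 1 of the 10 genes were called. The difference of Slc2a4 to adipocyte markers lay between 0.66 and 0.84 and that to Slc2a1 between 1.44 and 1.92 over their alternatives, and that of Irs2 to Irs1 between -0.66 and -0.37; paired differences by replicate block gave the same means with an exact permutation p = 0.25, the smallest that 3 pairs allow. No alternative could bring these below 0.05.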
